A study of Rattus norvegicus with 49 samples.

Results

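Calca and Calcb are the 2 rat genes that encode calcitonin and the calcitonin gene-related peptides. Their transcripts were followed in thyroid tissue from male Sprague Dawley rats, untreated or killed months after one intravenous injection of 131I, the radioactive iodide taken up by the thyroid. With earlier results of these data known, the genes were chosen by name, through the RefSeq accessions that the arrays give for their probes. They are 2 of the 15154 genes with a named probe, and they are read by 3 of the 25284 probes tested: A_64_P018761 and A_64_P018766 for Calca, each on a transcript of its own, and A_64_P018781 for Calcb. Each probe is printed as 2 spots per array, and each is described separately.

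The 49 one-colour arrays, 1 per thyroid sample, fell into 13 groups, 10 of 4 and 3 of 3. Rats described as young were injected at 5 weeks of age with 0.5 kBq, 5 kBq, 50 kBq or 500 kBq, and killed 9 months later at 10 months of age; further 50 kBq groups were killed after 3 or 6 months, at 4 or 7 months of age. Rats described as adult were injected at 17 weeks with 50 kBq and killed after 3, 6 or 9 months, at 7, 10 or 13 months of age. Untreated controls were 4, 7, 10 or 13 months old, and each exposed group was compared with the controls of its own age; the groups of 3 were the 5 kBq group and the controls of 7 and 13 months.

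Calcitonin is the hormone of the parafollicular C cells, which lie among the thyroid follicles and release it when blood calcium rises; it slows bone resorption. Calca gives rise by alternative splicing to calcitonin in C cells and to the neuropeptide CGRP in sensory nerves, while Calcb encodes a second CGRP. C cells do not take up iodide through the sodium iodide symporter as the follicular cells do, but they lie close to the cells that do. Levels below are log2 signals relative to the 75th percentile of the same array, so 0 is the level of that percentile and 1 unit is a doubling; probes differ in their response, so levels were not compared between probes.

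In the rat genome Calca and Calcb are neighbours in the RefSeq gene order, with 0 genes listed between them, and Pde3b and Cyp2r1 stand before and Insc after them. The region just upstream of Calca is shown because both of its probes read transcripts of this gene, and the genes of this pair varied together on the arrays. The stretch is chr1:178317589-178317779 of RefSeq's GRCr8 build, minus strand, 5′ to 3′, and its capitals mark the matches to 3 short motifs searched on both strands.

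Calca promoter: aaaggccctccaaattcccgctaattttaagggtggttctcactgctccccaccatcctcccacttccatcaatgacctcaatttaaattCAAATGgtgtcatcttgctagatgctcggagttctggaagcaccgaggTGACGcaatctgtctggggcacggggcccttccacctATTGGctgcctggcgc

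The E-box letters CANNTG, here CAAATG, are bound by basic helix-loop-helix factors. Of the 33469 promoter windows in the same table, 56.3% hold them in their first 191 bases, as many as are shown for Calca. All shares here count those bases only. The letters TGACG, part of the cyclic AMP response element, were in 12.6% of the windows, and ATTGG, the CCAAT box on the other strand, in 27.6%. The E-box form CAGCTG, in 8.95% of the windows, had 0 matches in the stretch shown for Calca. These matches are letters and no binding was measured; of the pair, the table gives Calca.

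Before the calcitonin genes were compared, the arrays were checked against their label of thyroid. Spots well above background made up 43.1% to 82.5% of an array. The lowest array, replicate 2 of the young 50 kBq group at 3 months, was the dimmest. On 2 arrays, replicate 3 of that group and replicate 2 of the 7-month controls, the defining genes of follicular thyrocytes were far below their level elsewhere: thyroglobulin (Tg) at −0.69 and 0.14 against 6.41 to 7.91 on the other 46, and the transcription factor Pax8 at −8.14 and −6.12 against −0.09 to 3.82. The muscle gene Ckm lay at 8.15 and 8.91 on these 2 arrays and reached at most 7.70 on the other 46. The other 46 arrays all had at least 70.1% of their spots well above background. Results that use these 3 arrays are given with and without them. The median root mean square difference from the other arrays was 2.23, 1.18 and 1.17 on these 3. Replicate 3 of the adults 9 months after 50 kBq, at 1.21, was about as far from the rest as the 2 arrays with little thyroglobulin. It was kept, and left out only where each array was left out in turn. Replicates 1 and 2 of the 13-month controls were the most alike of all 1176 pairs of arrays (root mean square difference 0.19 over 10938 probes, median of all pairs 0.63), and they still differed by more than their spot noise, 0.172 against 0.0904 over 6901 probes with repeated spots, so both were kept. The next closest pair, replicates 1 and 2 of the adults 6 months after 50 kBq (0.238), was the closest over the 500 most variable probes (0.499 against 0.617), differed by 0.189 against a spot noise of 0.0697 and was kept too.

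**Figure D1:**
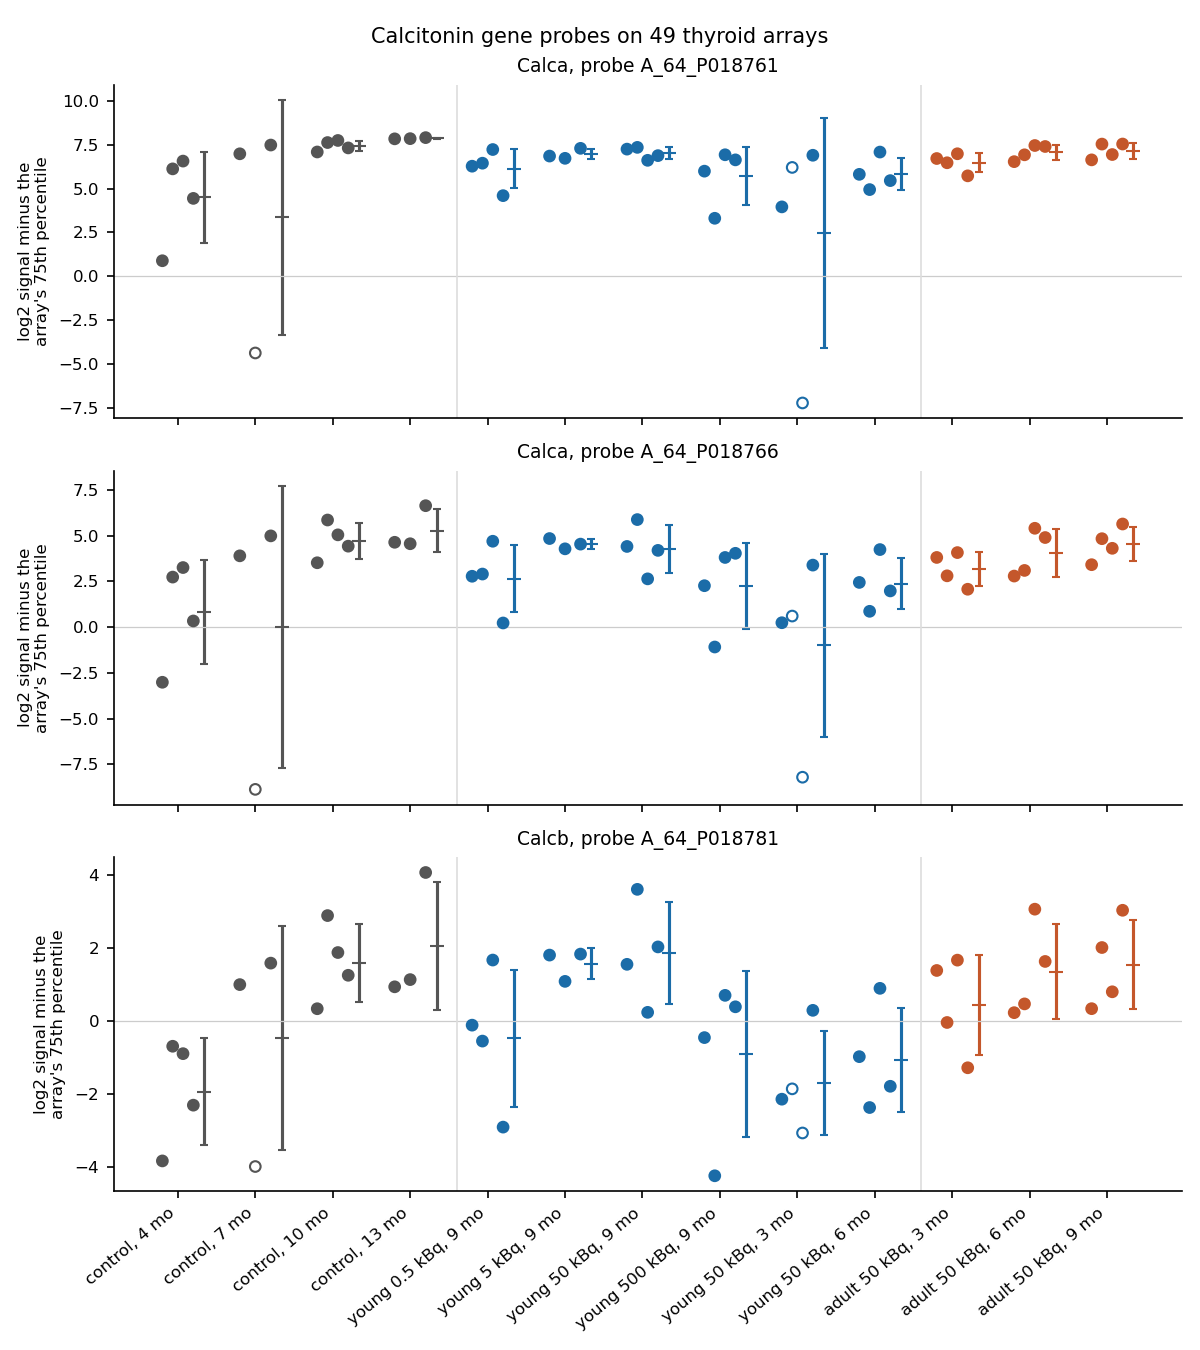
Signal of the 3 calcitonin gene probes (log2, relative to each array's 75th percentile) in every array of the 13 groups; each point is 1 array, hollow points are the 3 arrays that stand apart, and bars give the mean ± SD. The 10- and 13-month controls lie above all 4 of the 4-month controls in each panel, and the 500 kBq group includes 1 array far below its other 3.

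C cells themselves were looked for through their markers. Of 10 marker genes 9 were tested, and 8 of these stood clear of background on 45 arrays or more, somatostatin (Sst) on 37. The 2 arrays with little thyroglobulin also had the lowest levels of chromogranin A (Chga, a protein of the secretory granule), −7.77 and −6.50 against −2.32 or more on the other 46. Over these 46, Chga followed Calca little (r 0.0953 with A_64_P018761, 0.186 with A_64_P018766, and 0.193 with Calcb). Other markers of the list followed A_64_P018761 more closely: Chgb at 0.924, Gfra4 at 0.763, Ret at 0.646 and Sst at 0.585. The mean score of 7 C cell markers, Chga among them, followed it at 0.754. A bulk thyroid sample cannot tell fewer C cells from less calcitonin gene RNA per C cell.

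The clearest differences in Calca and Calcb were among the untreated rats of different age. In the 4-month controls the A_64_P018761 probe of Calca read 0.89, 6.12, 6.56 and 4.44. In the 10-month controls it read 7.08, 7.62, 7.74 and 7.31, and in the 13-month controls 7.83, 7.84 and 7.90. Every 10- or 13-month control was therefore above every 4-month control, and on this probe the youngest of these ages was the most scattered. On Calcb the 13-month controls were the most scattered of them, with an SD of 1.76 against 1.46 at 4 months. The means ± SD on A_64_P018761 were 4.50 ± 2.58 (n = 4), 7.44 ± 0.30 (n = 4) and 7.86 ± 0.04 (n = 3). Leaving out the lowest 4-month control, replicate 1, left the difference at 10 months at 1.73 and that at 13 months at 2.15.

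The other Calca probe gave −3.02, 2.74, 3.26 and 0.34 in the 4-month controls. It gave 3.53, 5.87, 5.05 and 4.43 at 10 months and 4.65, 4.57 and 6.65 at 13 months. The groups did not overlap there either. Calcb, whose product CGRP dilates vessels and acts on neurons, read −3.84, −0.70, −0.90 and −2.31 at 4 months. At 10 months it read 0.33, 2.89, 1.87 and 1.25 and at 13 months 0.93, 1.13 and 4.07, again with every older control above every young one.

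Between 4 and 10 months Calca was higher by 2.93 (SE 1.83) and 3.89 (SE 1.89) on its 2 probes and Calcb by 3.52 (SE 1.11) on the log2 scale, or 7.64-, 14.8- and 11.5-fold. The exact permutation test over arrays, two-sided, gave 0.0286 for each probe, the smallest p that 4 against 4 allows; limma's p adjusted over all 25284 probes was 1.00, 1.00 and 0.68, so none passed the threshold of 0.01. At that threshold, with a fold change above 1.5, 0.0119% of all probes were called. All 3 probes had every 10-month array above every 4-month array, against 1.81% of probes that did so.

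At 13 months the difference from 4 months was 3.35 (SE 1.98), 4.46 (SE 2.04) and 3.98 (SE 1.20), or 10.2-, 21.9- and 15.8-fold. limma's adjusted p was 0.230, 0.118 and 0.0201, and 0 of the 3 probes were called where 5.15% of all probes were. The exact permutation p was 0.0571 for each probe, the smallest that 3 against 4 allows, and all 3 did not overlap, as did 21.5% of all probes in that direction. Without the 3 arrays that stand apart, none of which belongs to these 2 age groups, the spread shared by all groups was smaller: limma's adjusted p was 0.00223, 0.00375 and 0.00500 and all 3 probes were called, as were 21.9% of all probes. In the fit that weights arrays by their quality the 3 probes were called too, where 35.7% of all probes were.

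The 7-month controls hold one of the arrays with little thyroglobulin. Calca read 6.98, −4.36 and 7.48 on A_64_P018761, 3.90, −8.88 and 5.00 on A_64_P018766 and Calcb read 0.99, −4.00 and 1.58, the middle value each time being that array. On A_64_P018766 that array was not well above background. With it, the difference from 4 months was −1.14, −0.82 and 1.47 and 0 probes were called, where 0.00396% of all probes were. Without it, both 7-month controls were above every 4-month control on all 3 probes, by 2.72, 3.62 and 3.23, where 10.4% of all probes showed the same; the exact permutation p was 0.133, the smallest that 2 against 4 allows.

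The age differences had the same direction within scan dates. Within the first scan date the 10-month controls were above the 4-month controls by 3.83, 4.75 and 3.76 (3 arrays against 2). The 13-month controls were above by 4.36, 5.78 and 4.77 within the first (2 against 2) and by 2.34, 2.76 and 2.74 within the second (1 against 2). Markers of other cells also differed between the ages. The muscle score, the mean of the marker genes' log2 levels each centred over all arrays, was −0.54 to 0.77 in the 4-month controls, 0.41 to 0.81 at 10 months and −3.32 to −2.40 at 13 months. The squamous epithelium score was −2.64 to 7.56, −4.15 to 6.61 and −2.71 to −2.17, and the follicular thyrocyte score −1.12 to 0.90, −0.22 to 0.50 and 0.94 to 1.33. For C cell markers without Calca and Calcb the score was −1.80 to 0.21 at 4 months, 0.28 to 1.77 at 10 and 1.15 to 3.66 at 13. The part of tissue composition in the calcitonin gene differences was not tested.

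Rats that received 50 kBq were also compared by age, a comparison added after the values were seen. In the young series Calca on A_64_P018761 read 3.96, 6.20, −7.20 and 6.89 at 3 months after injection, where the second and the third arrays are among those that stand apart. It read 7.24, 7.34, 6.61 and 6.87 at 9 months. Calcb read −2.15, −1.87, −3.08 and 0.29 at 3 months and 1.55, 3.61, 0.23 and 2.03 at 9 months. With all arrays the 3 probes were higher at 9 months by 4.55, 5.28 and 3.55, limma's adjusted p 0.066, 0.0442 and 0.0277, and 0 were called where 0.36% of all probes were. The exact permutation p was 0.0857, 0.0571 and 0.0571, and replicate 3 at 3 months was not well above background on either Calca probe. Without the 3 arrays the differences were 1.59, 2.47 and 2.78, with exact permutation p of 0.4, 0.267 and 0.267. In the adult series the differences between 9 and 3 months were 0.69, 1.36 and 1.11, and the exact permutation p 0.143, 0.114 and 0.286; 0 probes were called, and 0% of all probes were.

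**Figure D2:**
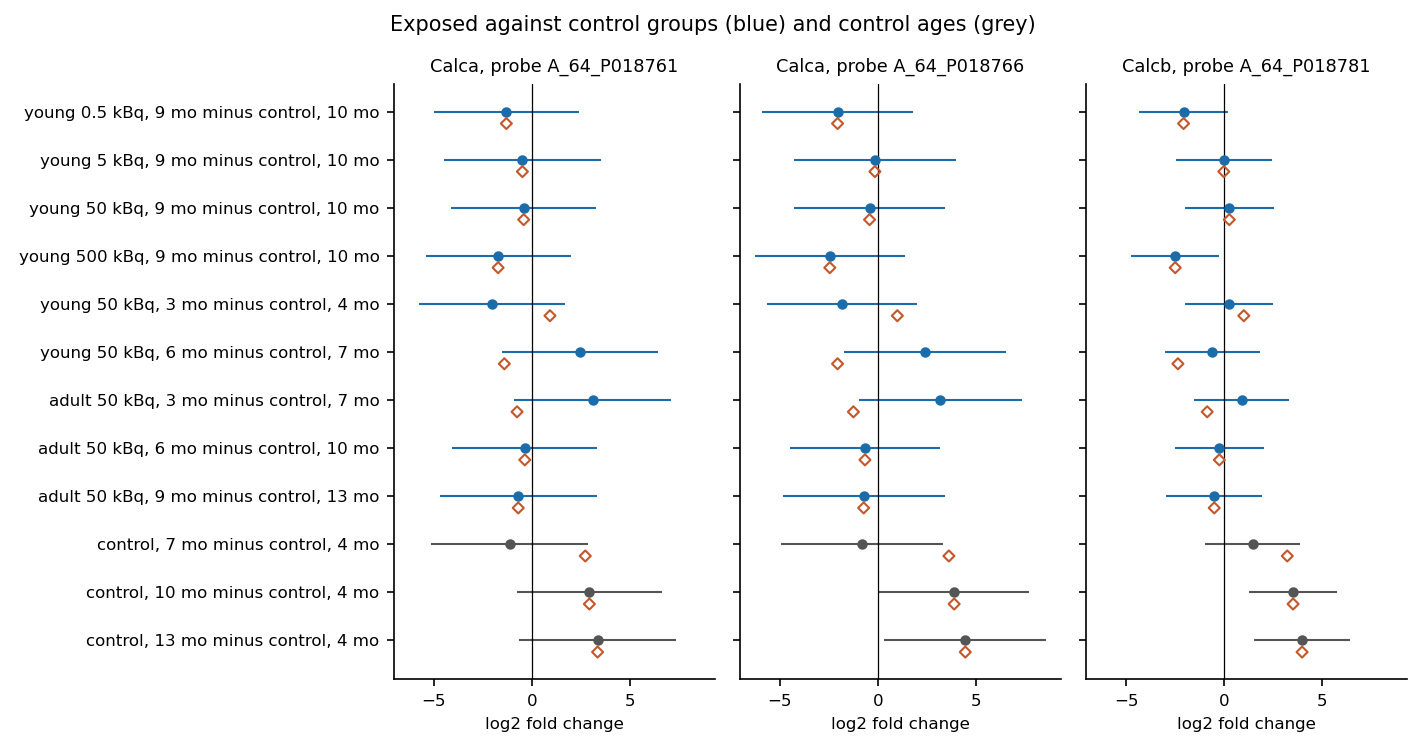
Differences in log2 signal with 95% confidence intervals from the limma fit, for each of the 3 probes; blue marks exposed against control of the same age, grey marks older against younger groups, and orange diamonds are the values without the 3 arrays that stand apart. For A_64_P018761 every interval of the 9 exposure comparisons and of the 10- and 13- against 4-month controls holds 0; for A_64_P018766 and Calcb those of the 10- and 13-month controls lie above 0, and for Calcb that of 500 kBq lies below it (−4.75 to −0.24).

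The main question of the study was what low activities of 131I do to the thyroid over months. In young rats 9 months after 500 kBq, Calca on A_64_P018761 read 5.99, 3.31, 6.92 and 6.63, against 7.08 to 7.74 in the 4 controls of 10 months. All 4 exposed arrays were below all 4 controls, and replicate 2 was far below the others. The processed signals on A_64_P018761 overlapped before scaling, 15476 to 413923 in the exposed rats against 249512 to 597650 in the controls. The arrays' 75th percentiles were 1562 to 4172 against 1842 to 2802, and the part of the scaling was not tested. The A_64_P018766 probe read 2.27, −1.09, 3.82 and 4.04 against 3.53 to 5.87, and Calcb read −0.46, −4.25, 0.70 and 0.38 against 0.33 to 2.89, so that the groups overlapped on these probes.

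The differences after 500 kBq were −1.72 (SE 1.83), −2.46 (SE 1.89) and −2.49 (SE 1.11). limma's unadjusted p was 0.352, 0.202 and 0.0313 and its adjusted p 1.00 for each, so no probe was called; 0% of all probes were. The exact permutation p was 0.0286 for A_64_P018761, the smallest possible, and 0.0857 for each of the other probes; 0.586% of all probes had every exposed array below every control. Without replicate 2 the differences were −0.92, −1.34 and −1.38. Within the one scan date that held both groups, where replicate 2 met 1 control, they were −4.43, −6.14 and −6.12. All other 500 kBq arrays were scanned on the second date and all other controls on the first. For these arrays exposure and scan date cannot be told apart, and the value of replicate 2 alone is no check of it. The C cell markers without Calca and Calcb lay at −1.71 to 1.16 in the 500 kBq group and at 0.28 to 1.77 in the controls, the muscle score at −2.47 to 0.96 and 0.41 to 0.81, and their part in the difference was not tested.

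After 0.5 kBq the A_64_P018761 probe read 6.27, 6.44, 7.22 and 4.60, A_64_P018766 read 2.79, 2.91, 4.70 and 0.23, and Calcb read −0.12, −0.56, 1.67 and −2.91. Replicate 4 was the lowest on all 3 probes, and without it the differences were −0.79, −1.25 and −1.25. With all 4 arrays the differences from the controls were −1.30 (SE 1.83), −2.06 (SE 1.89) and −2.07 (SE 1.11), with exact permutation p of 0.0571, 0.0857 and 0.0857. The nerve marker score was −0.84 to −0.23 after 0.5 kBq against −0.20 to 0.57 in the controls, below all 4 of them, the C cell score −1.78 to 1.55 against 0.28 to 1.77, and the squamous epithelium score 7.44 on replicate 4 and −2.88 to −2.04 on the other 3 arrays; their part in the difference was not tested. After 5 kBq, with 6.85, 6.72 and 7.29 on A_64_P018761, and after 50 kBq, with 6.61 to 7.34, the groups lay closer to the controls, and the differences were −0.48, −0.16 and −0.01, and −0.42, −0.43 and 0.27. No probe was called at any of the 3 activities, where 0%, 0.0119% and 0.0119% of all probes were. The 4 activities share the 10-month controls, and between neighbouring activities 0 of 9 tests were called; the lowest unadjusted p was 0.0178, for Calcb at 500 against 50 kBq, adjusted 1.00, where 0% of all probes were called in each comparison.

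In young rats killed 3 months after 50 kBq the difference from the 4-month controls was −2.04, −1.82 and 0.24, and 0.92, 0.99 and 1.01 without the arrays that stand apart; 0 of 3 probes were called where 0.0119% of all probes were. The cartilage score was 2.39 to 4.08 in these exposed rats and −1.19 to 2.09 in the controls, without overlap, and its part in the differences was not tested. At 6 months Calca read 5.81, 4.94, 7.08 and 5.45 on A_64_P018761 and 2.45, 0.87, 4.25 and 1.98 on A_64_P018766, and Calcb read −0.98, −2.38, 0.89 and −1.80. The difference from the 7-month controls was 2.45, 2.38 and −0.59, and −1.41, −2.06 and −2.35 without the control array with little thyroglobulin, where every exposed array was below both controls for Calcb, as were 11.9% of all probes. None was called, with 0% of all probes called.

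In rats injected as adults the A_64_P018761 probe read 6.71, 6.47, 6.98 and 5.72 after 3 months, 6.53, 6.92, 7.45 and 7.39 after 6 and 6.63, 7.53, 6.94 and 7.53 after 9. Calcb read 1.38, −0.05, 1.66 and −1.29, then 0.22, 0.46, 3.06 and 1.63, then 0.33, 2.01, 0.80 and 3.03. Against the controls of the same age the 3 probes differed by 3.1, 3.19 and 0.90 at 3 months (−0.76, −1.25 and −0.86 without the control array named above), by −0.36, −0.66 and −0.24 at 6 months and by −0.70, −0.73 and −0.50 at 9 months. At 9 months all 4 exposed arrays were below all 3 controls on A_64_P018761, as were 16.4% of all probes in that direction, and the exact permutation p was 0.0571, the smallest possible. Before scaling, the processed signals on that probe overlapped, 266383 to 558175 in the exposed rats against 305399 to 343701 in the controls. The arrays' 75th percentiles were 2426 to 3580 against 1333 to 1441, and the part of the scaling was not tested. Within the one scan date that held both groups the difference on that probe was −1.08 (2 arrays against 2), while the fit with scan date as a block gave 0.48 and that with slide as a block 1.29. None of these tests was called, where 0%, 0% and 0.558% of all probes were at 3, 6 and 9 months. The muscle score at 9 months was −9.27 to 0.60 in the exposed rats and −3.32 to −2.40 in the controls. The follicular thyrocyte score was 0.02 to 0.65 against 0.94 to 1.33, and the C cell score 0.04 to 1.86 against 1.15 to 3.66. Their part in the differences was not tested.

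Rats injected young and rats injected as adults were also compared at the same age, and the effects of 50 kBq with each other. For young against adult, 0 of 6 tests were called and the lowest unadjusted p was 0.188, with 0% of all probes called at 7 months of age and 0.0119% at 10 months. For the effect of 50 kBq at 9 months in the young against that at 3 months in the young and that at 9 months in the adults, 0 of 6 tests were called, the lowest unadjusted p was 0.535, and 0% of all probes were called. The standard errors ranged from 1.11 to 1.89 for young against adult and from 1.58 to 2.79 for the effects of 50 kBq, so differences of several log2 units remain within the error. Over the 21 comparisons, 63 tests of the 3 probes gave 0 calls and 9 unadjusted p below 0.05, and of the 57 exact permutation tests 4 had p below 0.05. Of these 57, 24 had a group of 3 arrays and could not reach p below 0.0571.

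Ordered by mean level over all 13 groups, the 13-month controls were the highest on each probe. For A_64_P018761 the 10-month controls followed, and after them the adults 9 and 6 months and the young 9 months after 50 kBq; for Calcb the young group 9 months after 50 kBq came second. Of the 12 neighbouring pairs of groups in that order, 1 had a gap above the larger SD and did not overlap, the 13- and 10-month controls on A_64_P018761. On A_64_P018766 and on Calcb 0 of the 12 did. The 13-month control arrays were dim, with 75th percentiles of 1333 to 1441 against 1842 to 2802 on the 10-month controls. Before scaling, their processed signals on A_64_P018761 overlapped, 305399 to 343701 against 249512 to 597650. The part of the scaling in their high levels was not tested. With all arrays the 7-month controls and the young 50 kBq group at 3 months were the lowest for Calca, and without the arrays that stand apart the 4-month controls were the lowest on all 3 probes.

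**Figure D3:**
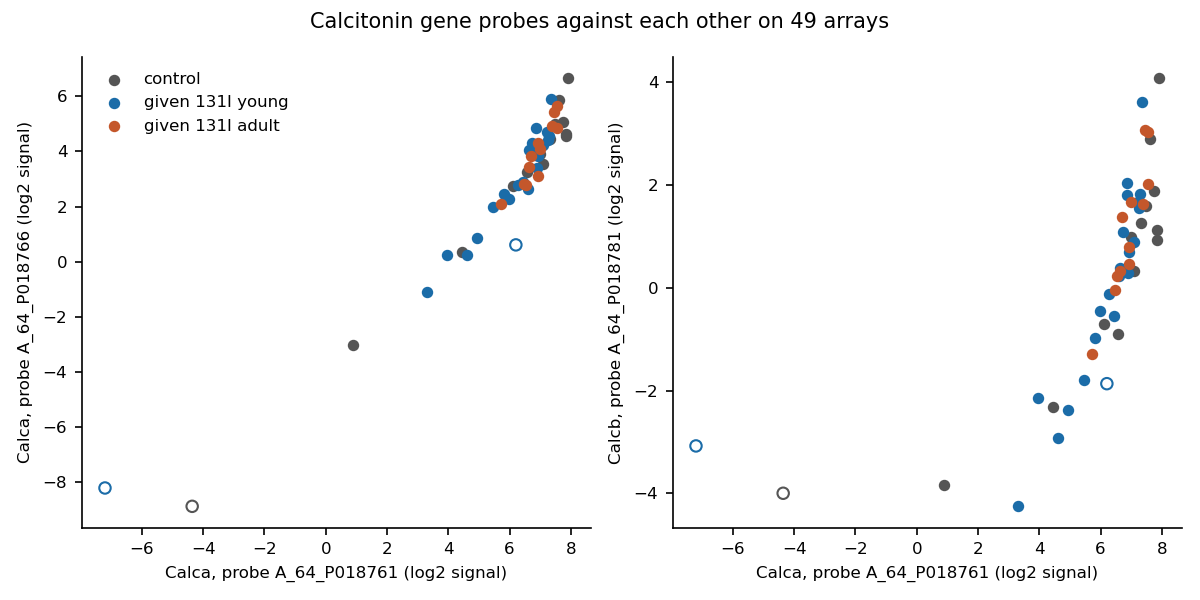
The A_64_P018766 probe of Calca (left) and the Calcb probe (right) against the A_64_P018761 probe of Calca, log2 signal relative to each array's 75th percentile, on the 49 arrays; hollow points are the 3 arrays that stand apart. The probes are high and low on the same arrays, and the Calcb points climb more steeply where A_64_P018761 was near its top value.

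Calca and Calcb varied together from array to array. Over the 46 arrays left without those that stand apart, Pearson's r was 0.955 between the Calca probes, 0.875 between A_64_P018761 and Calcb and 0.958 between A_64_P018766 and Calcb. After subtracting each group's mean it was 0.924, 0.791 and 0.939, and over all 49 arrays 0.958, 0.712 and 0.857. These are descriptions over arrays that share groups, slides and tissue composition. The slope on A_64_P018761 was 1.36 for A_64_P018766 and 1.22 for Calcb. No spot was saturated on any array, and the values of A_64_P018761 spanned −7.20 to 7.90. Near its top this probe varied less than the other probes. In the 13-month controls it read 7.83, 7.84 and 7.90. On the same arrays A_64_P018766 read 4.65, 4.57 and 6.65 and Calcb read 0.93, 1.13 and 4.07. Whether the response of A_64_P018761 flattens there was not tested.

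Which other genes moved most like Calca was asked by Pearson's correlation with A_64_P018761 over 49 arrays, for the 11495 genes well above background on at least 25 of them. The arrays share groups, slides and tissue composition. Among the nearest 10 were Fam163a (r 0.933), Nkx2-1 (0.922), a transcription factor of both thyroid cell types, Pax8 (0.918), the factor of follicular cells, C10h16orf89 (0.913), Dio1 (0.910), the deiodinase that activates thyroxine, Ildr1 (0.909), Urah (0.907), Klhl14 (0.906) and Tmc4 (0.905). With each group's mean subtracted the r of these genes ran from 0.914 for Urah to 0.950 for Fam163a. The lowest r belonged to Bnip2 (−0.775), Wdr12 (−0.754) and Nsa2 (−0.752). Without the 3 arrays that stand apart 0 of these 10 remained among the nearest 10. They became Pcsk2 (0.929), the prohormone convertase of neuroendocrine cells, Chgb (0.924), chromogranin B of the granule, Scg3 (0.920), Resp18 (0.920), Scgn (0.908), Sftpd (0.903), Hoxb7 (0.894), Celf3 (0.888), Ina (0.881) and Cabp7 (0.872). With all arrays these had ranked 59 to 446. Over the same 46 arrays Chgb correlated at 0.991 with the A_64_P018766 probe of Calca and at 0.967 with Calcb, and Pcsk2 at 0.989 and 0.965.

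**Figure D4:**
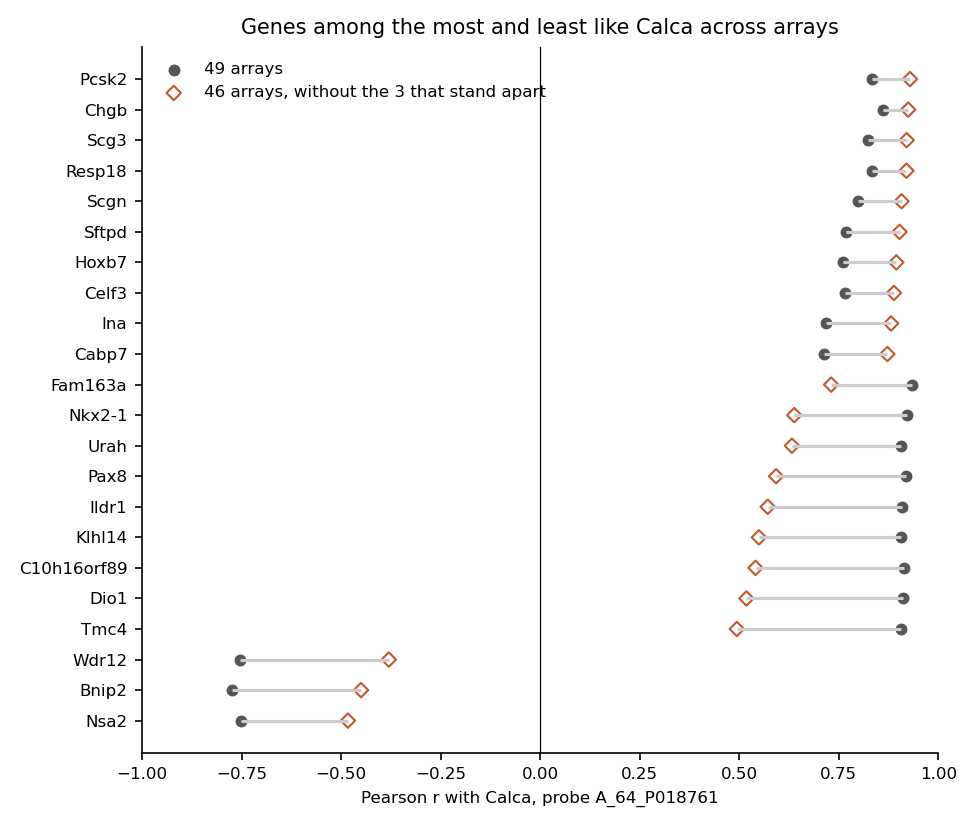
Pearson correlation of genes among the nearest and of the 3 lowest with Calca (A_64_P018761) over all 49 arrays and over 46 arrays, without the 3 that stand apart. The thyroid genes Nkx2-1 and Pax8 stand near the top with all arrays and the granule genes Pcsk2 and Chgb lead without the 3.

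The same was seen with marker lists. Over 46 arrays Calca on A_64_P018761 correlated with the mean score of 7 C cell markers other than Calca and Calcb at r 0.754 (Spearman's rho 0.806), Calca on A_64_P018766 at 0.865 and Calcb at 0.877. With the thyrocyte score the A_64_P018761 probe correlated at 0.578, and at 0.896 with all 49 arrays, with the muscle score at −0.216 and with the parathyroid score at 0.028. The points share their arrays and the genes their tissue.

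**Figure D5:**
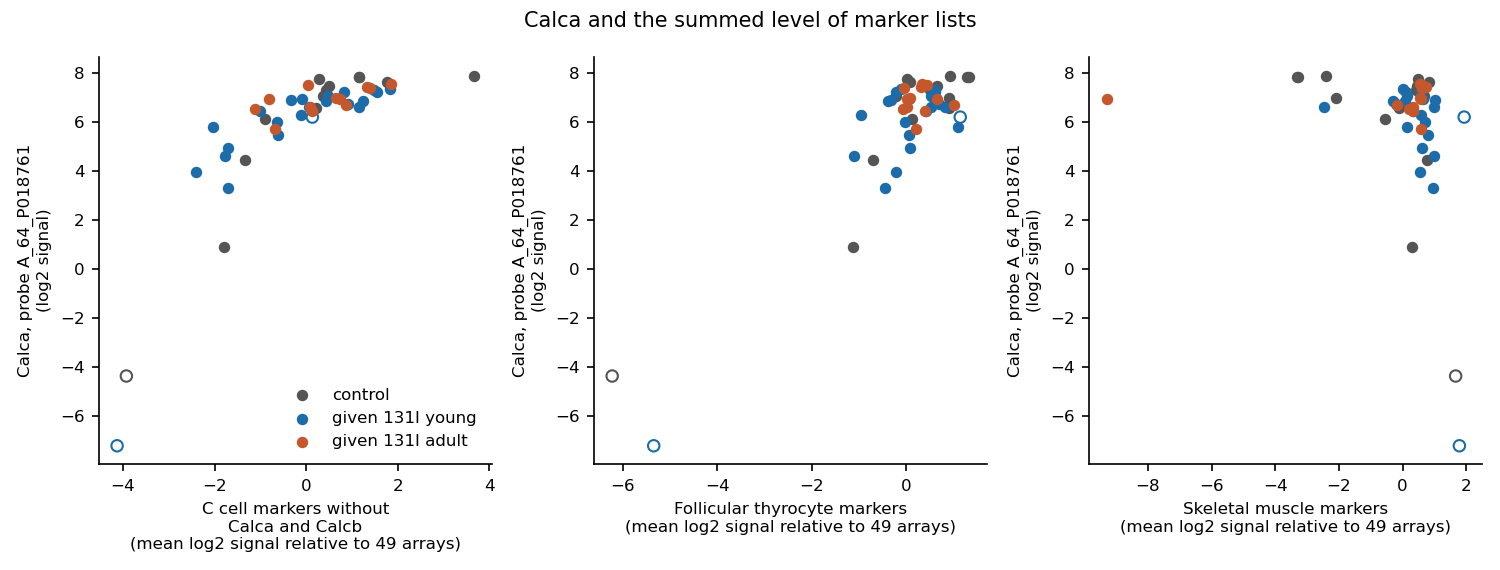
Calca (A_64_P018761, log2 signal) against the mean marker scores of C cells, follicular thyrocytes and skeletal muscle on the 49 arrays, with the 3 that stand apart hollow. Calca is higher where the C cell score is higher over the filled points (r 0.754), and 2 of the hollow points lie at the low end of the thyrocyte score.

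Genes of the C cell were then described by function, from lists chosen with earlier results of these data known. In 13- against 4-month controls, the comparison with the largest differences in Calca and Calcb among the untreated groups, granins and prohormone processing enzymes had a median difference of 2.19 over 11 genes, 11 of 11 higher, against a median of 0.19 and 59.9% higher over all probes; 0 were called, where 5.15% of all probes were. Chgb was at −0.90 ± 2.33 (n = 4) in the 4-month controls and 3.48 ± 1.74 (n = 3) at 13 months, Chga at 3.34 ± 1.69 and 5.04 ± 0.24, Scg5 at 1.84 ± 1.12 and 4.02 ± 1.11 and Cpe at 0.56 ± 0.62 and 0.82 ± 1.10. Chgb differed by 4.38, adjusted p 0.0426 by limma.

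C cell identity genes and receptors, 12 tested of 13, had a median of 1.62 and were higher for 11 of 12, and 1 was called, Gfra1, a GDNF family receptor, by 1.97 (SE 0.52, limma's adjusted p 0.00992). Over all probes 59.9% were higher and 5.15% were called, so 1 of 12 is near the background. Gfra4, the persephin receptor of C cells, stood at −4.68 ± 1.16 at 4 months and −1.65 ± 2.03 at 13 months, and Ret, the receptor whose mutation causes medullary thyroid carcinoma, differed by 1.64, adjusted p 0.0459. Genes of exocytosis and excitability, 14 tested of 20, had a median of 1.48 and were higher for 12 of 14, with 1 call, Cplx2, which holds vesicles ready to fuse, from −2.22 ± 0.62 to 1.02 ± 0.41, by 3.24 (SE 0.73, adjusted p 0.00409), and 1 of 14 is near that background too. Other peptides and amines of C cells had a median of −0.14 and 0 calls among 11, and the receptors for calcitonin, CGRP and calcium a median of 0.26 and 0 calls among 7, with Ramp1, a receptor partner, at −1.67 and the calcium receptor Casr at 2.20. In the calcitonin family 4 of 5 were tested, with a median of 2.54 and 0 calls; Iapp was not tested.

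Without the 3 arrays, called in 13- against 4-month controls were 3 of 4 of the calcitonin family (Calca, Calcb, Adm2), 6 of 11 granins and processing enzymes (Chgb, Scg3, Pcsk1, Pcsk1n, Pcsk2 and Pam), 6 of 12 identity genes (among them Ret, Gfra4, Gfra1, Nkx2-1 and Dll3), 6 of 14 exocytosis genes (among them Syt4, Cplx2, Scn3a, Celf3 and Eno2) and 1 of 7 receptors, Calcr, which was lower. The share over all probes was 21.9%. In the same comparison thyrocyte markers were higher for 12 of 12, muscle markers lower for 6 of 6, squamous epithelium markers lower for 4 of 4 and cartilage markers lower for 5 of 5, and their part in these counts was not tested.

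In 10- against 4-month controls the granins had a median of 1.40 and were higher for 10 of 11, exocytosis genes a median of 0.87 with 14 of 14 higher, identity genes 0.42 and the calcitonin family 1.55, against a median of −0.02 and 46.7% higher over all probes; 0 were called in these lists, where 0.0119% of all probes were. After 500 kBq against controls the granins had a median of −1.07 and were lower for 10 of 11, other peptides and amines −1.25 with 9 of 11 lower, exocytosis genes −0.48 with 10 of 14 lower and identity genes −0.28, against a median of 0.06 and 40.1% lower over all probes. Chgb read 0.45 ± 2.40 after 500 kBq against 2.92 ± 1.11 (n = 4 each), a difference of −2.47 (SE 1.43), and Ddc, the enzyme that makes dopamine and serotonin, differed by −1.34; 0 were called, and 0% of all probes were. After 0.5 kBq the granins had a median of −1.31, lower for 10 of 11, and exocytosis genes −0.92, lower for 13 of 14, against a median of −0.00 and 50.7% lower over all probes; 0 were called, and 0% of all probes were. After 5 kBq the granins had a median of −0.13, lower for 7 of 11, and exocytosis genes −0.04, lower for 10 of 14, against −0.02 and 53.0% lower over all probes. After 50 kBq the granins had a median of 0.01, lower for 4 of 11, and exocytosis genes −0.21, lower for 8 of 14, against 0.04 and 42.3% lower over all probes. No gene of these lists was called at either activity, where 0.0119% of all probes were. The comparisons at the 4 activities share the 10-month controls. Over 46 arrays Chgb, Pcsk2 and Scg3 correlated with A_64_P018766 at 0.991, 0.989 and 0.986, and Chga at 0.186. Genes that follow Calca array by array are not separate from its differences. The list counts were not repeated without replicate 2 of the 500 kBq group or replicate 4 of the 0.5 kBq group, the lowest for Calca.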

How the data were processed

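Thyroid RNA from 49 rats in 13 groups was measured on 1-colour Agilent rat arrays of 62976 spots each. The authors' scanner files, made with Agilent Feature Extraction 10.7.3.1 per the file headers, hold background-subtracted processed signals, deposited as intensity values; a second deposited file holds the authors' fold changes and p-values and was not used. A call here needed a fold change over 1.5 and a Benjamini-Hochberg p under 0.01, the limits that the authors' methods name without naming the test.

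Control spots (4259 per array) and outlier spots were left out and spots of a probe averaged. log2 processed signal minus the array's 75th percentile was fitted by group with limma 3.58.1 (R 4.3.3, eBayes, 36 residual degrees of freedom), over 25284 probes well above background on at least 3 arrays, with Benjamini-Hochberg adjustment over all of them. Exact permutation tests over arrays were two-sided, and intervals are 95%. Replicate arrays are separate samples in the labels; nothing ties equal replicate numbers to each other. The number of arrays limits the precision. Marker scores are means of the log2 levels of the marker genes, each centred on its mean over all arrays.

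The genes described and the gene and marker lists were chosen with earlier results of these data known. The genes named in each list are those with the highest mean level and those called. Alternatives were quantile scaling, normexp background correction, the array median, no filter or a stricter one on dim probes, fits of fewer groups, probes of a gene averaged, array weights, scan and slide blocks, a replicate block, the adjusted p of 0.05, leaving out each array, and, chosen after seeing the data, leaving out 3 arrays and averaging the closest pair. The values of a few listed genes are not reported here.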

Additional observations from a re-analysis of the deposited data

How the results depend on the processing

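Of 854 alternatives to 42 single probe differences, 784 kept the direction and the side of the threshold, 11 passed it where the values reported did not, 0 lost a call and 59 turned the direction. The number of calls among the 3 probes in the controls by age went from 0 to 3 with array weights and without the 3 arrays that stand apart, and to 1 (Calcb) with scan date as a block or with an adjusted p below 0.05; leaving out each of the 14 control arrays in turn left it at 0, and exposed arrays were not left out singly for this count. Of the nearest 10 genes to Calca over 49 arrays, 0 were among the nearest 10 to Calcb, 1 among those of the other Calca probe and 0 among those found without the 3 arrays. Over the 46 arrays the nearest 10 to A_64_P018761 shared 10 with the other Calca probe and 9 with Calcb. In the same order of probes (A_64_P018761, A_64_P018766, Calcb), the differences that turned were these. At 5 kBq they were 0.020, 0.054 and 0.0092 with quantile scaling and 0.055, 0.079 and 0.014 with normexp correction. With normexp Calcb was −0.10 for young 50 kBq at 3 months and A_64_P018766 was 0.31 for 7- against 4-month controls. With slide as a block Calcb was −0.41 for young 50 kBq at 9 months and 0.0063 at 6 months, and adults at 9 months were 1.29, 1.65 and 0.85; with scan date as a block these adults were 0.48, 0.65 and 0.22. With array weights the Calca probes were 1.01 and 1.32 for young 50 kBq at 3 months, −1.08 and −1.83 at 6 months and 3.16 and 4.34 for 7- against 4-month controls, adults at 3 months were −0.67, −1.50 and −1.10, and Calcb in adults at 9 months was 0.68. Without the 3 arrays the Calca probes were 0.92 and 0.99 for young 50 kBq at 3 months, −1.41 and −2.06 at 6 months and 2.72 and 3.62 for 7- against 4-month controls, and adults at 3 months were −0.76, −1.25 and −0.86. Leaving out each array in turn, the ranges were −0.56 to 0.22 (A_64_P018766) and −0.43 to 0.42 (Calcb) at 5 kBq, −0.96 to 0.12 and −0.32 to 0.81 (the same probes) at 50 kBq, −3.52 to 1.18, −3.29 to 0.58 and −0.43 to 0.70 for young 50 kBq at 3 months, −1.41 to 4.51, −2.06 to 4.87 and −2.35 to 0.44 at 6 months, −0.76 to 5.16, −1.25 to 5.68 and −0.86 to 1.93 for adults at 3 months, −0.81 to 0.19 (Calcb) at 6 and −1.06 to 0.51 (Calcb) at 9 months, and −3.19 to 2.72 and −3.32 to 3.62 (Calca) for 7- against 4-month controls. The cause was not tested. Equal replicate numbers were checked for pairing: their correlation was above 0.1 for every number in 1 comparison, young 50 kBq at 6 months (0.139 to 0.330), and in the others the lowest was at or below −0.0776. The replicate block changed no call: after 500 kBq the differences were −1.72, −2.46 and −2.49, and 13- against 4-month controls were 3.45, 4.56 and 3.97 with adjusted p 0.249, 0.129 and 0.0228 by limma; it took the calls over all probes from 1302 to 788 there and from 141 to 9 in adults at 9 months. With the closest pair of 13-month controls averaged, chosen after seeing the data, adjusted p was 0.351, 0.186 and 0.0456, and calls over all probes went from 1302 to 15.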
